A study of Mus musculus with 2 samples.

Results

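Spliced transcripts that lie on the strand opposite to a known gene, or outside every known gene, were listed in both long-read libraries of mouse gastrocnemius, the large calf muscle. A model was taken when the authors' TALON annotation gave its gene as Antisense or Intergenic, it had 2 or more exons and it lay on a numbered chromosome, X or Y. That gave 848 of 92223 listed mouse models in replicate 1 and 718 of 73027 in replicate 2. Of these, 620 and 497 were antisense and 228 and 221 intergenic, in replicates 1 and 2 in that order. Models of both libraries whose exons overlapped on the same strand were joined, which left 1117 loci, 814 antisense and 303 intergenic.

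The tissue came from male B6CASTF1/J mice aged 10 days, a first-generation cross of the B6 and CAST strains, and 2 µg of total RNA with added spike-in RNAs went into each library. The 2 libraries form 1 untreated group with no control, so values are given per library. The labels number the animals differently but give both the same donor identifier, and they cite pipeline document version 3.1 for replicate 1 and version 3.0 for replicate 2, so animal and document version cannot be told apart. The files held 1172413 reads in replicate 1 and 957529 in replicate 2, of which 1145490 and 941841 were mouse reads. All 10 skeletal muscle markers, such as Acta1 and Ckm, were read in both libraries and summed to 263947 and 250784 reads per 1000000 mouse reads (CPM). Markers of other cells were also present: 5 matrix genes summed to 19738 and 11957 CPM, 4 Schwann cell genes to 1691 and 1290 CPM, 3 endothelial genes to 127 and 81.8 CPM, and 3 red cell genes to 329 and 693 CPM. Which cells made the antisense and intergenic transcripts was not tested.

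Antisense transcripts are made from the strand opposite to a gene and can overlap its exons, its introns or its start. Some act on the gene they overlap and many have no known role. Divergent transcripts start close to the start of a gene and run away from it, and many promoters fire in both directions. Most introns begin with GT, or less often GC, and end with AG when they are read along the strand that was transcribed. An intron read from the wrong strand therefore begins with CT and ends with AC.

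The letters at the intron ends separated 2 kinds of antisense intron, and the sequences that show this are printed first. Each line gives 20 bases of GRCm38 along the strand of the antisense model. The line for the start holds 10 exon bases and then 10 intron bases, and the line for the end holds the reverse. Capitals mark the first or last 2 intron bases. The intron opposite Slc9a2 (chr1:40681249-40681718, minus strand, 470 nt) has the usual letters. It carried 12 and 8 reads. The introns opposite Nr2f2 (chr7:70358291-70359887 and chr7:70354932-70357762, plus strand), Rian (chr12:109646752-109649153, minus strand) and Atp2a1 (chr7:126448383-126448536, plus strand) have the letters of the other strand.
Slc9a2 antisense intron, start: aaccagttcgGTgggtgtga
Slc9a2 antisense intron, end: ccccccgcAGgctcctgcaa
Nr2f2 antisense intron of 1597 nt, start: ctctgtacagCTgcaggagg
Nr2f2 antisense intron of 1597 nt, end: aggccgatACcttcccgtct
Nr2f2 antisense intron of 2831 nt, start: ccacaggcatCTggaagaaa
Nr2f2 antisense intron of 2831 nt, end: tccttcctACctgaggtgaa
Rian antisense intron, start: agaatgcattCTgagagttc
Rian antisense intron, end: cttcacttACttcagctgcc
Atp2a1 antisense intron, start: catcccctgtCTgaagacgg
Atp2a1 antisense intron, end: gacttctcACcatggctgtg

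The unusual letters went with position. Of 1407 distinct antisense introns, 260 (18.5%) had both ends at the exact coordinates of an annotated intron of the opposite strand, and they are called mirrored introns here. Allowing 12 nt at each end raised the count to 299 (21.3%). No genome sequence was used, so only intron ends that lie inside an annotated exon could be read. A readable end existed for 54 mirrored introns, and in all 54 it read CT or AC, which follows from their position opposite annotated introns. Of the other antisense introns, 313 had a readable end, and in 305 of them (97.4%) every readable end was GT or GC at the start or AG at the end. Both ends could be read in 65, of which 53 (81.5%) had GT with AG and 9 (13.8%) GC with AG. Among annotated introns, taken 1 in 20, both ends could be read in 1254, and 1228 (97.9%) had GT or GC with AG. GC with AG was found in 37 of the 1254 (2.95%). In the same libraries, models of known genes with an unannotated splice site (class NNC) had 8 of 99283 introns at opposite-strand introns in replicate 1 and 9 of 80245 in replicate 2. All of these were also annotated on their own strand, as most NNC introns were and no member intron was. Of NNC introns not annotated on their own strand, 0 of 23656 and 0 of 18217 lay at one, which allows shares of up to 0.0127% and 0.0165%. NNC models lie on the strand of their known gene, while antisense members were chosen for a known gene on the other strand. The NNC shares are therefore not an expected rate for the 18.5%.

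Chains with only mirrored introns were mostly chains of 1 intron. An intron chain is the set of all introns of a model in order. Of 998 distinct antisense chains, 199 (19.9%) had only mirrored introns, 24 had some and 775 had none. Of the 199, 158 had 2 exons and so a single intron, as had 502 of the 775. A chain of 1 intron cannot be mirrored in part. Chains with only mirrored introns held 29.8% of antisense member reads in replicate 1 and 30.4% in replicate 2. No intergenic intron was mirrored, and no member intron lay at an annotated intron of its own strand.

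The ends of these chains also lay at known transcript ends. A 3′ end within 100 nt of an annotated start on the opposite strand was found for 81 of the 199 mirrored chains (40.7%), and for 32 of the 775 unmirrored ones (4.13%). A 5′ end within 100 nt of an annotated 3′ end on the opposite strand was found for 47 mirrored chains (23.6%) and 31 unmirrored ones (4.00%). The reverse held for a 5′ end at an opposite-strand start, with 12 mirrored chains (6.03%), against 110 unmirrored ones (14.2%) and 55 of 404 intergenic ones (13.6%). Many of these ends lay at the annotated base itself, 77 of the 81, all 47, 107 of the 110, all 55 intergenic ones and 5 of the 12. The deposited ends therefore do not resolve distances within the 100 nt window, and how they came to lie at annotated bases was not tested.

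**Figure D1:**
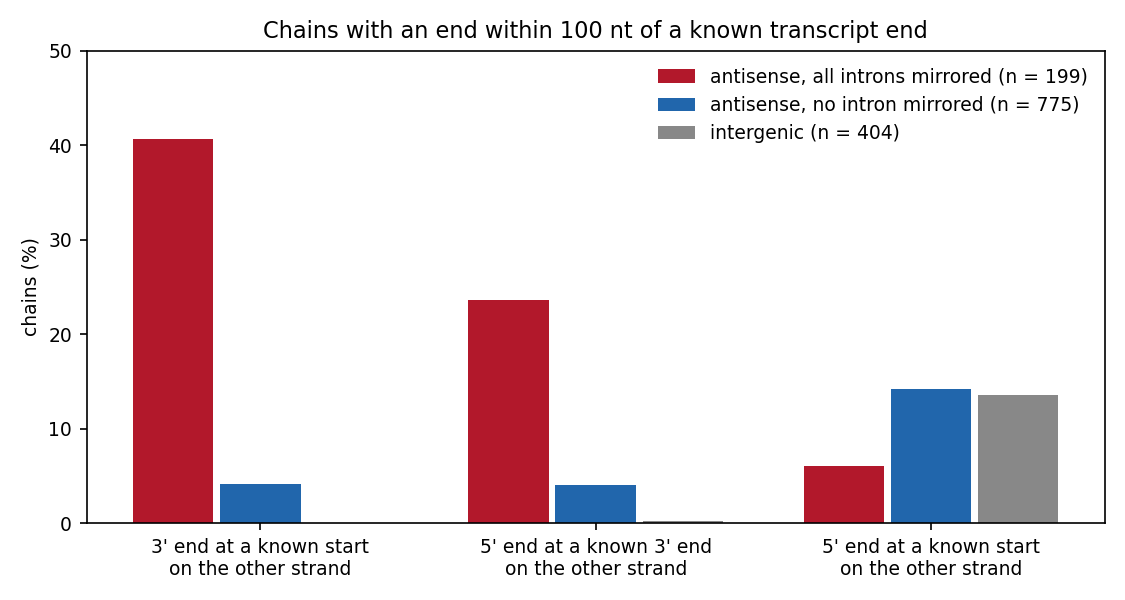
Share of intron chains (y axis, %) with an end within 100 nt of an annotated transcript end on the opposite strand, for antisense chains with only mirrored introns, antisense chains with none and intergenic chains. Mirrored chains stand highest at the 2 left positions, at 40.7% and 23.6%, and lowest at the right one, at 6.03%.

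Reads of both strands that held all introns of the most read antisense model were counted, and their balance differed widely between mirrored loci. Ccdc80, a gene for a secreted matrix-associated protein, had the most read antisense locus of all (chr16:45094029-45104536, minus strand, inside the gene). It carried 58 reads in replicate 1 and 47 in replicate 2, or 50.6 and 49.9 CPM. Its 2 most read chains had 31 and 22 reads and 26 and 23 reads. The gene had 63 and 39 reads with both introns of the first chain, so antisense reads were 34.2% of the reads with these introns. Of all its reads, the gene had 76 and 47, more than the locus in replicate 1 and as many in replicate 2. The 3 exons of the most read model, 157, 1886 and 373 nt long, overlapped Ccdc80 exons.

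Crebbp, which encodes a histone acetyltransferase and coactivator, had an antisense model of 6 exons whose 5 introns were all mirrored (chr16:4128444-4213997, plus strand). The locus had 20 reads in each library, 11 and 14 of them in that model. Crebbp itself had 6 and 5 reads, and none of them held the same 5 introns. Antisense reads thus outnumbered those of the gene in both libraries.

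Nr2f2 encodes an orphan nuclear receptor, and the mirrored locus opposite it had 12 and 16 reads (chr7:70353074-70360593, plus strand). Of these, 7 and 14 held both introns of the most read model. The gene had 10 and 6 reads with both introns, and 29 in each library in all. Antisense reads with the introns were thus fewer than those of the gene in replicate 1 and more in replicate 2. Ppp1r3a encodes the glycogen-targeting subunit of protein phosphatase 1 in muscle. Its mirrored locus (chr6:14717016-14755274, plus strand) had 12 and 14 reads, of which 10 and 14 held all 3 introns, while the gene had 20 and 15 reads with those introns and 38 and 30 in all. Mbnl1 encodes a regulator of alternative splicing. Opposite it lay a mirrored locus (chr3:60529549-60595749, minus strand) with 9 and 10 reads, of which 9 in each library held its intron, while the gene had 15 and 12 reads with it and 69 and 50 in all. Over both libraries, the antisense share of reads with the same introns was 56.8% for Nr2f2, 40.7% for Ppp1r3a and 40.0% for Mbnl1. Set against all reads of the gene, the whole locus was 32.6% of the sum for Nr2f2, 27.7% for Ppp1r3a and 13.8% for Mbnl1.

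Other mirrored loci had few reads beside the gene. Ubl3, which encodes a ubiquitin-like protein, had 4 and 9 antisense reads (chr5:148505978-148552157, plus strand), and the gene had 114 reads with the same intron in each library, an antisense share of 5.39%. Atp2a1 encodes SERCA1, the calcium pump of fast muscle fibres. Its mirrored locus had 2 antisense reads in replicate 1 and none in replicate 2, against 93531 and 59416 reads of the gene with the same intron, an antisense share of 0.00131%. Rian, an imprinted long non-coding RNA, had a mirrored locus with 2 reads in each library. Its longest model, of 4 introns, rested on 1 read in replicate 1, and none of the 53 and 25 reads of Rian held those 4 introns together. Gm13943, a gene with 4 and 1 reads, was mirrored at 1 intron by a locus with 15 and 11 reads (chr2:77311600-77317035, minus strand).

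**Figure D2:**
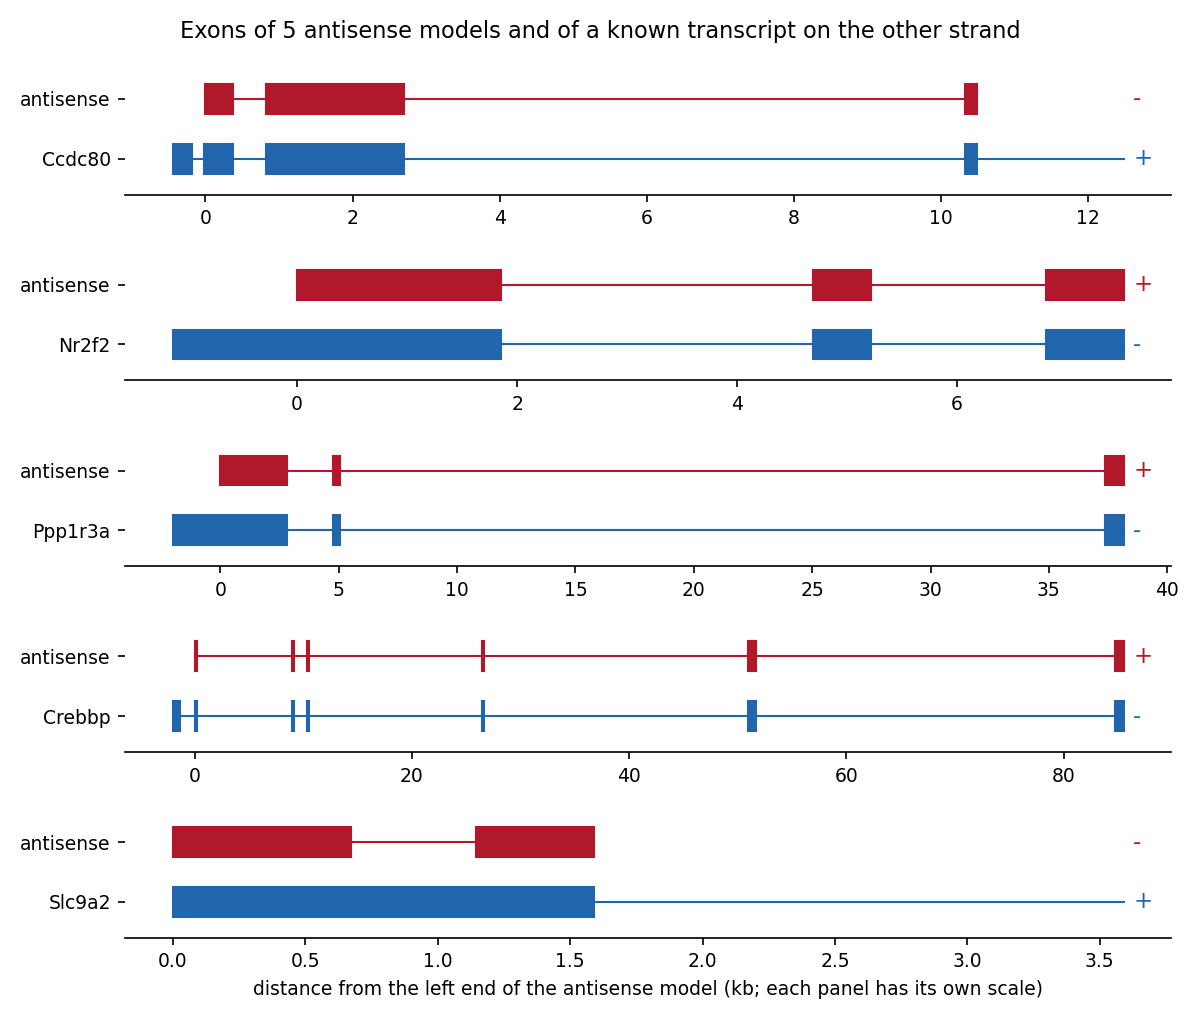
Exons (boxes) and introns (lines) of 5 antisense models, red and upper in each panel, and of 1 known transcript of the opposite strand, blue and lower, by distance from the left end of the antisense model in kb, with the strand at the right and the drawing ended 2 kb beyond the model. In the panels of Ccdc80, Nr2f2, Ppp1r3a and Crebbp the introns of the pair coincide, and in that of Slc9a2 the antisense intron lies inside a known exon.

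The most read model of 177 antisense loci had only mirrored introns. For 24 of the 177 no read of the known gene held the same introns, for 31 there were fewer such reads than antisense reads with them (the 24 included), and for 5 the counts were equal. The gene had more in 141 loci and at least 10 times as many in 109. In 149 of the 177 no model had more than 1 read. The median was 33 gene reads with the same introns over both libraries. Mirrored models were found opposite 0.664% of known multi-exon genes with 1 to 19 reads, 1.35% of those with 20 to 99, 2.14% of those with 100 to 999 and 2.96% of the 169 with 1000 or more. For antisense loci with no mirrored intron the same shares were 2.49%, 4.12%, 5.07% and 7.10%. Both shares were higher among genes with more reads. For a locus without exon overlap the opposite-strand gene with most reads was counted, so the shares for loci with no mirrored intron depend in part on that choice. Whether a read was assigned to the right strand was not tested, since the deposited files hold no read sequences.

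**Figure D3:**
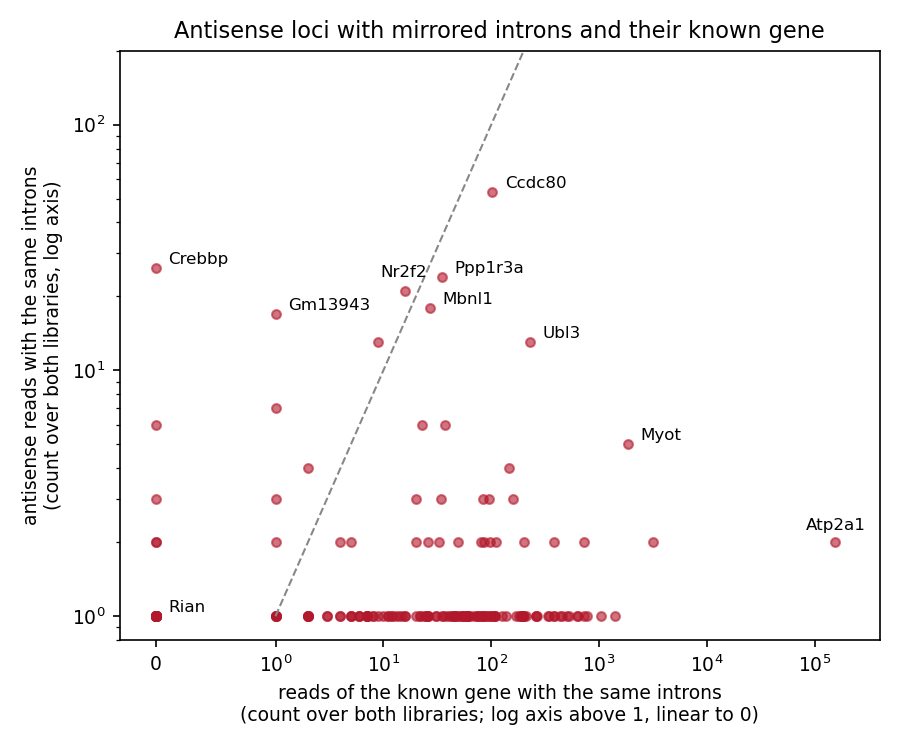
Antisense reads with all introns of the most read model of 177 mirrored loci (y axis, log scale) against reads of the known gene with the same introns (x axis, log scale above 1), both counts over 2 libraries, with the dashed line at equal counts. Crebbp, Gm13943 and Nr2f2 lie left of the line, Ppp1r3a, Mbnl1 and Ccdc80 to its right, and Ubl3, Myot and Atp2a1 far to the right.

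Among antisense introns with the usual letters, a few joined repeated sequence. For each intron with enough readable bases, the longest run of letters shared by both ends across the intron boundary was measured, allowing an offset of 3 nt. The search covered a fixed stretch around each end, so a longer run would be cut short. The run was 8 nt or longer in 6 of 52 unmirrored antisense introns with GT or GC and AG (11.5%), and in 5 of 1148 annotated introns with the same letters (0.436%). None of 21 mirrored introns had one. The 8 nt limit was chosen after the values were seen. The intron opposite Neat1, a nuclear long non-coding RNA, was 59 nt long (chr19:5840809-5840867, plus strand). It shared at least 29 nt at its ends, the most that the search could find at its offset. The others were opposite Arl15 (23 nt), Aptx (21 nt), Smg1 (17 nt), St13 (16 nt) and Klhl24 (9 nt). A further Klhl24 intron with other letters shared 23 nt. The repeats can be seen in the printed ends of the Neat1, Smg1 (chr7:118205045-118205108, plus strand) and St13 (chr15:81384249-81384444, plus strand) introns, with capitals as above.
Neat1 antisense intron, start: gcatagagcaGTgtttgcag
Neat1 antisense intron, end: catagagcAGtgtttgcagg
Smg1 antisense intron, start: agatggctagGTtggtaaag
Smg1 antisense intron, end: aggaagctAGgttggtaaag
St13 antisense intron, start: acataaaaagGCttccaaga
St13 antisense intron, end: aaaaaaaaAGgcttccaaga

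The chains of the Neat1, Smg1, St13 and Klhl24 introns lay in loci with a chain in both libraries. Neat1 antisense had 2 and 3 reads, Smg1 2 and 1, St13 2 and 4 and the Klhl24 locus 6 and 3. Introns at repeats were thus among those read in both libraries.

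Most members were read once, so the most read model of a locus is often a single read. In 954 of 1117 loci no model had more than 1 read in a library, and in 97 loci several chains tied for most read, where replicate 1 and then the lower identifier was taken. A single read supported 712 models (84.0%) in replicate 1 and 597 (83.1%) in replicate 2. The members held 1262 and 1046 reads, or 0.110% (95% Wilson interval 0.104 to 0.116%) and 0.111% (0.105 to 0.118%) of mouse reads. The intervals cover counting error only, and they overlap. Antisense models had 912 and 750 of these reads and intergenic ones 350 and 296. A model had 5 or more reads in 35 and 23 cases, and the highest counts were 31 and 23. One read was worth 0.873 and 1.06 CPM, and a count of 0 allows up to 3 reads, or 2.62 and 3.19 CPM.

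The members were short in exons. In replicates 1 and 2, 65.3% and 62.3% had 2 exons, and the most had 11 and 10. The median was 2 exons in both libraries, against 8 for spliced models that match an annotated transcript. Median length was 1723.5 and 1599 nt, against 2471 and 2416 nt for those matching models. Median intron length was 1590 and 1528 nt, against 1322.5 and 1312 nt for the known introns that were read.

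Chains were seldom found in both libraries at 1 read and nearly always at 5 or more. Of the member chains of replicate 1, 19.8% (17.3 to 22.6%) were found in replicate 2, and of those of replicate 2, 23.7% (20.7 to 26.9%) were found in replicate 1. At 1 read the shares were 11.9% and 14.9%, at 2 to 4 reads 49.5% and 60.2%, and at 5 to 19 reads 93.8% and 95.2%. All 3 and 2 models with 20 or more reads were found. NNC models of known genes gave 10.2% and 15.5% at 1 read, and 51.0% and 61.5% at 2 to 4 reads. Models that join known splice sites in a new way (class NIC) gave 17.2% and 28.4% at 1 read. The members' intervals overlapped those of NNC models in every read class, and at 1 read lay below those of NIC models. Mirrored antisense chains were found in 28.4% (21.4 to 36.5%) and 36.9% (28.2 to 46.5%), the other antisense chains in 17.1% (14.0 to 20.7%) and 20.8% (17.1 to 25.1%), and intergenic chains in 20.6% (15.9 to 26.3%) and 22.6% (17.6 to 28.6%).

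**Figure D4:**
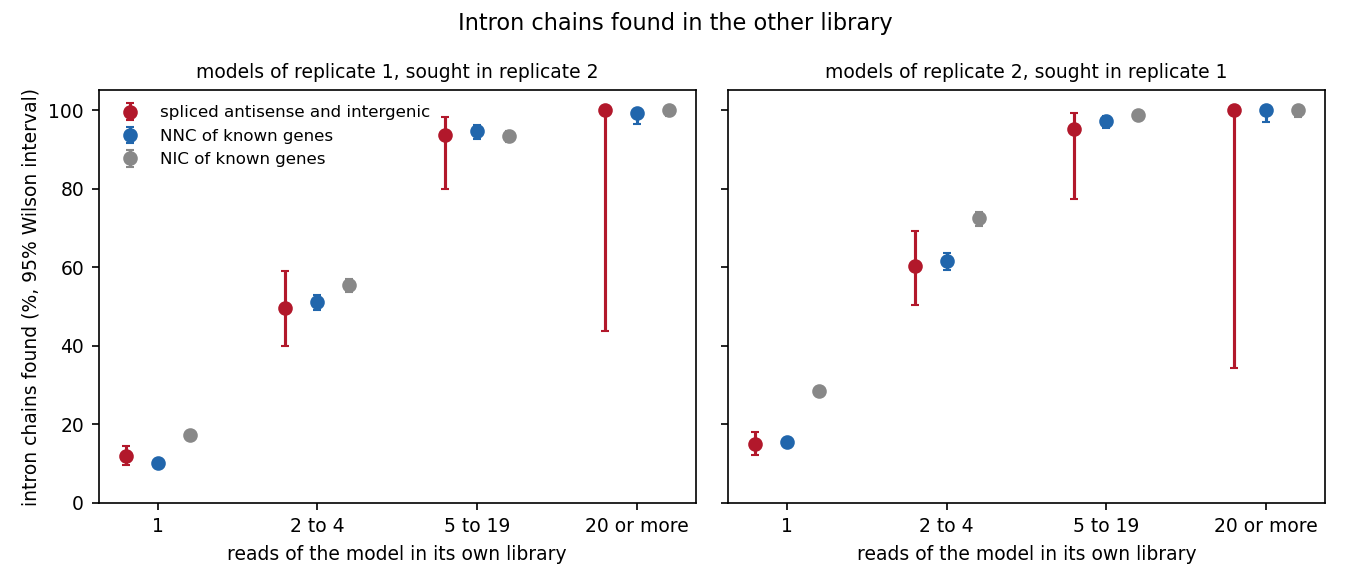
Share of intron chains found in the other library (y axis, %, with 95% Wilson intervals) by the reads of the model in its own library (x axis), for the spliced antisense and intergenic models, NNC and NIC models of known genes. Shares of the antisense and intergenic models stand at 11.9% and 14.9% for 1 read and at 93.8% and 95.2% for 5 to 19 reads.

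Over both libraries there were 1402 distinct chains, of which 174 (12.4%) were in both, 122 of 998 antisense and 52 of 404 intergenic. Of the loci, 98 antisense (12.0%) and 42 intergenic (13.9%) had a chain in both. A single read supported 609 antisense and 221 intergenic loci, and 8 and 4 had 20 or more. Exceptions to the rule at 5 reads were 3 models. They lay opposite Cnbd2 (chr2:156356526-156363246, 0 and 6 reads), Prpf38b (chr3:108903147-108906983, mirrored, 6 and 0 reads) and Myot (mirrored, 5 and 0 reads), a sarcomere gene with 789 and 1072 reads over the same intron. Each count lies near the floor, and none of these chains reached the 20 reads needed for a test.

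Between the libraries no member was called different. An exact two-sided conditional binomial test was run on every transcript with 20 or more reads over both libraries, with Benjamini-Hochberg adjustment, and a call needed a 2-fold difference at an adjusted p under 0.05. It called 247 of 7922 transcripts (3.12%), and 0 of the 9 member chains that could be tested. No member chain had an unadjusted p under 0.05, which 1474 of the 7922 had. The widest difference was that of the most read Nr2f2 antisense chain, with 7 and 14 reads, a log2 ratio of -1.23 (replicate 1 over replicate 2) and an adjusted p of 0.344 in the exact test. The 2 Ccdc80 chains tested had log2 ratios of 0.20 and -0.11. Only 9 of 1402 member chains had enough reads to be tested, and the test compares these libraries and not conditions.

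**Figure D5:**
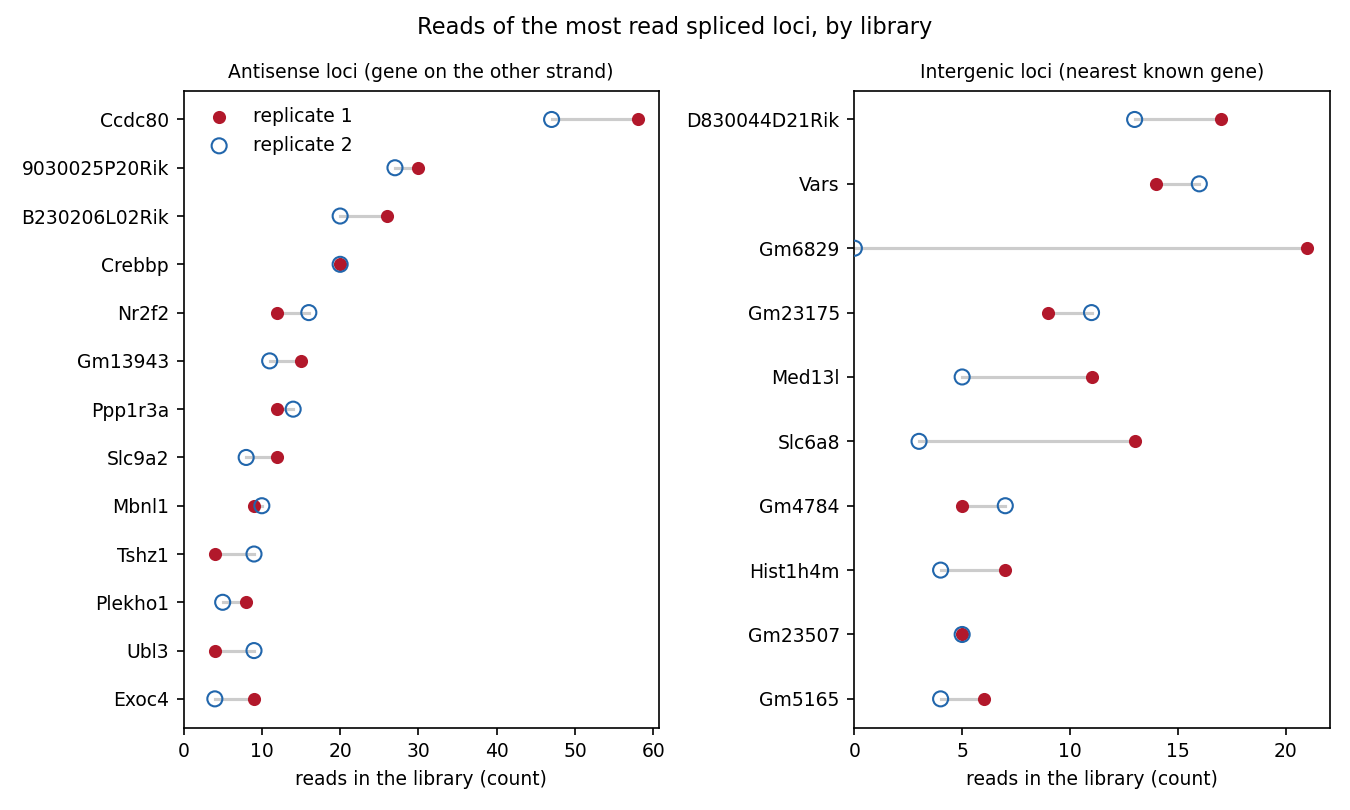
Reads per library (x axis, count) of the 13 antisense and 10 intergenic loci with most reads among those with a chain in both libraries, named by the gene on the other strand or by the nearest known gene. Ccdc80 stands highest, at 58 and 47 reads, and the locus near Gm6829 has 0 member reads in replicate 2 because its chain was listed there under the known gene.

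Antisense loci mostly lay within the bounds of the gene they oppose. The most read model was inside the gene in 581 of 814 loci (71.4%). In 148 (18.2%) the pair overlapped at their starts, in 47 (5.77%) at their 3′ ends, and in 28 (3.44%) the gene lay inside the locus. The gene was protein-coding in 734 of 807 loci that had one. Overlap with its exons was not required by the choice of members, and it was found in 597 of 814 loci (73.3%), with a median of 396 nt. In 525 loci it was 50 nt or more, and in 45 it was 1 nt. Without loci that held mirrored introns it was found in 404 of 621 (65.1%). The opposed genes had a median of 33 reads over both libraries, against 18 for all known genes with a read. In 93 loci the opposed gene had no read, and in 111 it had fewer than the antisense locus.

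Several of the most read antisense loci held no mirrored intron. The locus opposite 9030025P20Rik (chr17:14981576-14992900, minus strand) had 30 and 27 reads in 12 chains, 6 of them in both libraries, and the gene had 4 in each. It overlapped Gm3255, a RefSeq long non-coding gene that GENCODE does not name. The locus opposite B230206L02Rik (chr11:94127479-94138663, minus strand) had 26 and 20 reads in 12 chains, and that gene had 8 and 4. Both loci had several times the reads of the gene they oppose in each library. The locus with the Slc9a2 intron printed above (chr1:40680574-40682165, minus strand) had 12 and 8 reads, against 48 and 28 for Slc9a2, a sodium-hydrogen exchanger gene, and its exons lay wholly in Slc9a2 exons. The locus opposite Plekho1 had 8 and 5 reads and that opposite Exoc4, an exocyst subunit gene, 9 and 4, the second with no exon overlap. The locus opposite Tshz1, a zinc finger gene, was mirrored and had 4 and 9 reads. Acsl6, which encodes an acyl-CoA synthetase, had 8 and 2 antisense reads in 9 chains, none of them in both libraries.

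None of the listed sarcomere, calcium, glycolysis or matrix genes was opposed by a locus of the antisense class with more than 2 reads in a library. Jph1, on the calcium list, had a locus of the intergenic class with 4 and 3 reads, which overlapped it by 1 nt. Myot, on none of these lists, had a mirrored locus with 5 and 0 reads. Of all known genes with 20 or more reads, 492 of 7515 (6.55%) were opposed by any spliced antisense locus. Among 30 sarcomere genes it was 4 (13.3%; Ttn, Neb, Myom1 and Myom2), and among 14 calcium and membrane genes 2 (14.3%; Atp2a1 and Cacna1s). Among 12 glycolysis and energy genes it was 3 (25%; Pkm, Pfkm and Pygm), and among 10 matrix genes 1 (10.0%; Sparc). Ttn, the giant spring of the sarcomere, had a mirrored locus with 1 and 2 reads and a second one with 1 and 0. Sparc, a matrix glycoprotein gene, had a mirrored locus with 2 and 0 reads, against 1738 and 1451 reads of the gene over the same intron. Cacna1s, which encodes the calcium channel of the T-tubule, had a mirrored locus with 0 and 2 reads, against 578 and 149. Among known multi-exon genes with 1000 or more reads, 2.96% were opposed by mirrored models and 7.10% by loci with no mirrored intron. Both shares were lower at fewer reads. The lists hold such highly read genes, Acta1 and Ckm among them, so 6.55% is not the share of equally read genes. These lists are small, and the counts are given as descriptions.

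In 134 antisense loci (16.5%) and 48 intergenic loci (15.8%), the 5′ end of the most read model lay at an annotated opposite-strand start or up to 1000 nt upstream. That was 182 of 1117 loci in all (16.3%). Among known multi-exon genes with reads it was 2755 of 13734 (20.1%). Within 500 nt there were 106 and 40 loci. Both ends were at the same base in 133 of the 182, between 1 and 199 nt apart in 5, between 200 and 499 nt in 8 and between 500 and 1000 nt in 36. Since most deposited starts lay at the annotated base, distances under 500 nt may not be resolved, nor the side on which the reads began.

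The divergent loci named here are those with most reads, and the known roles of their partner genes vary. The locus beside Vars, the valyl-tRNA synthetase gene (chr17:34996730-35000375, minus strand), started 612 nt from it and had 14 and 16 reads, while Vars had 102 and 57. It overlapped the RefSeq gene D17H6S56E-5. Slc6a8 encodes the creatine transporter, and the locus at its start (chrX:73670404-73673150, minus strand) had 13 and 3 reads, against 22 and 12 for the gene. Lbx1 is a homeobox gene of migrating limb muscle precursors. The locus at its start (chr19:45235641-45254802, plus strand) had 5 reads in each library, and Lbx1 had 69 and 39. Jph1, a junctophilin gene of the triad, had a divergent locus with 4 and 3 reads (chr1:17097889-17129522, plus strand) in 6 chains, none of them in both libraries. Myf6 encodes the myogenic factor MRF4. A locus at its start (chr10:107494737-107659886, plus strand) had 3 and 4 reads in 7 chains of 1 read each, none in both libraries, while Myf6 had 138 and 145. One of these reads had 10 exons. Rbm20, a regulator of titin splicing, had one with 4 and 3 reads (chr19:53673061-53677306, minus strand), and Prkce, a protein kinase C gene, one with 4 and 3. The locus opposite Pde4d, a cAMP phosphodiesterase gene, had 7 and 5 reads and started 524 nt from an annotated start of that gene. Its most read model lay inside Pde4d, and the locus overlapped Pde4d exons by 588 nt. The locus opposite Gmeb2 also had 7 and 5 reads and started 810 nt from a Gmeb2 start.

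Of the 182 divergent loci, those of 50 genes started inside the RefSeq promoter window of the gene, which spans 250 bases before to 50 after its start on GRCm38.p6. Most read among these loci were those of Klhl41, with 2 reads in each library, and Vtcn1, with 3 and 1. Many others rested on 1 read in 1 library. The divergent loci named in the paragraph before are not among them, so the window values do not describe those loci. The 50 windows had a median of 26 CG dinucleotides, against 13 in the windows of 21262 protein-coding genes. The letters TATAAA, on either strand, were in 3 of the 50 (6.0%), against 12.6% of the protein-coding windows. The letters CANNTG, which read the same on both strands and hold the E-box, were in 41 (82.0%), against 69.0%. The MEF2 motif, searched on both strands after the Klhl41 window was read, was in 1 (2.0%), against 2.74%. Nearly all of the 50 genes had reads here, while the 21262 were taken with or without reads. Whether these differences go with divergent starts was therefore not tested. The divergent locus of Klhl41, which encodes a Kelch protein of the sarcomere, had 2 reads in each library and a chain in both (chr2:69659957-69670120, minus strand), against 118 and 112 reads of the gene. Its window (chr2:69669870-69670169, plus strand) is printed since the locus starts in it. The run of capitals marks the MEF2 match. The single capital, base 251, marks the deposited first base of the locus, which is copied on the other strand. That base is also an annotated start of Klhl41, so it may not be where the reads began.
Klhl41 promoter: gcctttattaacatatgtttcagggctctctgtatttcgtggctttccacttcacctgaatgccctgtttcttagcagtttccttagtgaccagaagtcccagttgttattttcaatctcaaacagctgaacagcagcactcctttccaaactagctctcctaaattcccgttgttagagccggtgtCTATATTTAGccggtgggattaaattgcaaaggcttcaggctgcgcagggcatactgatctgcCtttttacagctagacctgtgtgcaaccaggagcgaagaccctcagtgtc

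Intergenic loci lay a median of 6443 nt from the nearest known gene, with quartiles at 1269 and 18887.5 nt and a maximum of 146948 nt. From the nearest protein-coding gene the median was 13617 nt. Of 303 loci, 117 (38.6%) were more than 10000 nt from any known gene and 22 (7.26%) more than 50000 nt. Within 5000 nt of the nearest gene on the same strand there were 32 loci downstream of it and 27 upstream. The intergenic class also took in 44 loci over an opposite-strand gene, 40 of them by 1 nt. Over a RefSeq gene that GENCODE does not name, without regard to strand, lay 119 intergenic loci (39.3%) and 161 antisense loci (19.8%). A start in the same-strand promoter window of a RefSeq gene was found for 37 intergenic (12.2%) and 34 antisense (4.18%) loci.

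Level with the Vars locus in member reads over both libraries was an intergenic locus on chromosome 14 (chr14:31872346-31889782, plus strand). It had 17 and 13 reads in 7 chains, 4 of them in both libraries, and its nearest known gene, D830044D21Rik at 16746 nt, had no read. One on chromosome 3 (chr3:33969241-33993764, minus strand) had 9 and 11 reads and overlapped the RefSeq long non-coding gene Gm46833. Another lay 23993 nt downstream of Med13l, a Mediator subunit gene (chr5:118789431-118816811, plus strand), and had 11 and 5 reads, while Med13l had 8 and 0. A locus of 5 exons on X (chrX:109445413-109577738, plus strand) started in the promoter window of Gm34521, a RefSeq protein-coding gene, and had 5 and 7 reads. A locus of 4 exons on chromosome 17 (chr17:17179291-17206387, plus strand) likewise started in that of Gm38396 and had 6 and 4 reads, all in 1 chain. The locus downstream of the histone gene Hist1h4m (chr13:21813007-21820126, plus strand) lay 860 nt from it and had 7 and 4 reads. Loci with no chain in both libraries had 4 reads or fewer in a library, such as the one 22931 nt from Tgfb2 (chr1:186587368-186599861, plus strand), with 4 and 3 reads in 5 chains.

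The class of a chain was not always the same in both libraries. In 11 loci some models were antisense and others intergenic, Plekho1, Klhl41 and Hes1 among their neighbours. In addition, 10 chains that were members in 1 library belonged to a known gene in the other. The largest was near Gm6829 (chrX:9328977-9332625, minus strand), with 21 reads in each library, listed as intergenic in replicate 1 and as a partial match of Gm6829 (ISM, incomplete splice match) in replicate 2. Both libraries thus held this transcript at the same count, and its 0 member reads in replicate 2 come from its class alone.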

How the data were processed

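The authors deposited raw read counts per transcript model, with models of 1 or more read listed, and an annotation of the exons and TALON class of each model. Per the labels the assembly is mm10, and all 17892 and 16459 annotated transcripts listed had the exons of GENCODE M21. For the aligner, the sources used here name neither tool nor version. Members and lists were chosen with earlier results of these data known.

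Named loci were the 15 antisense and 10 intergenic loci with most reads among those with a chain in both libraries, 5 of each with chains in 1 library only, and up to 10 divergent loci. A few items taken by the rules or lists are not reported here. Neat1, Smg1, St13, Klhl24, Arl15, Aptx, Klhl41, Rian, Atp2a1, Myot and the genes of mixed class were named after their values were seen. CPM is reads per 1000000 mouse reads, spike-ins left out. Chains were matched by all intron coordinates. Intron letters came from GENCODE transcript sequences and promoter letters from RefSeq (GRCm38.p6). The library test used total mouse reads as the null share, with log2 ratios on reads plus 0.5, and was tested on simulated data. With 1 group no count model has a contrast. Alternatives covered read minimums, tolerances, windows, gene types and scaling by edgeR 4.0.16 or DESeq2 1.42.0. Python 3.11.15, pandas 2.3.3 and scipy 1.17.1 were used. Replicate p-values measure only the spread of counting, and intervals cover counting error only, since reads have no molecular identifiers.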

Additional observations from a re-analysis of the deposited data

Results flagged for a closer look

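Antisense and intergenic models of 1 exon lie outside the spliced models described here, and they held 18528 reads in replicate 1 and 16804 in replicate 2, in 7375 and 6244 models, against 1262 and 1046 reads of spliced models. They were singled out since their counts are above the 3 reads that a count of 0 allows and no comparison used them.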

How the results depend on the processing

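With 2 reads or more per model, members were 136 and 121 in replicates 1 and 2, their read share 0.0480% and 0.0477%, and chains found in both 61.0% and 66.9%. With 5 reads or more, members were 35 and 23, chains found in both 94.3% and 95.7%, and mirrored introns 47.9%. Mirrored introns were 21.3% within 12 nt and 32.9% weighted by reads, and 18.7% to 20.7% with a library left out. Loci, an alternative chosen after seeing the data, were 597 to 704 with a library left out, since 1 library lists fewer models. Exon overlap was 69.3% with protein-coding genes only, 64.5% at 50 nt and 74.1% to 75.2% with a library left out. Divergent starts were 13.1% at 500 nt, 20.1% at 2000 nt, 15.3% with protein-coding genes only and 15.9% to 17.3% with a library left out. The intergenic distance was 13617 nt to protein-coding genes, and 4621 to 8625 nt with a library left out. Transcripts called between libraries were 449 with DESeq2 size factors, 139 with no read minimum and 624 with no fold limit. Members called were 0 under each setting, but few could be called, with 9 tested at 20 reads, 24 at 10 reads and 1 at 50 reads. Where a value moved, the cause was not tested beyond the smaller sets that each setting leaves.

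No paired analysis was possible because the 2 libraries form 1 group. The main limit is depth: most members rest on 1 read, counts under 20 reads were not tested, and a count of 0 allows up to 3 reads. The effect of mapping to mm10 of reads from a cross with CAST was not tested. Strand rests on the authors' processing, and intron letters were readable only inside annotated exons.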
